A study of Homo sapiens with 4 samples.

Results

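The genes of the mitochondrial ribosomal proteins were examined in H1299 cells, a non-small-cell lung carcinoma line labelled p53-/-, that expressed either wild-type p53 (p53WT) or the p53 mutant that the labels call CASM34. The set was every protein-coding gene whose symbol is MRPL or MRPS followed by digits and an optional letter, plus DAP3, which encodes a small-subunit protein of another name. It held 79 of the 61852 genes listed, of which 51 encode large-subunit proteins, 27 encode small-subunit proteins and 1, MRPS36, carries the name but encodes a protein now assigned to the oxoglutarate dehydrogenase complex. Each group had 2 poly(A) RNA-seq libraries, named here p53WT 1 and 2 and CASM34 1 and 2. Both groups share the line, the p53-/- genotype and the culture medium, and no drug or time point is given. How p53 was expressed, from which promoter, and whether each group was a single clone are not given in the labels. Nor do the labels say that the 2 libraries of a group came from separate cultures, so each p-value reflects the spread among 4 libraries whose repeats may be technical.

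Mitochondria keep a ribosome of their own, which translates the few mRNAs encoded by mitochondrial DNA, all of them for subunits of the respiratory chain and ATP synthase. Its rRNAs come from mitochondrial DNA, whereas every one of its proteins is encoded in the nucleus, made in the cytosol and imported. Many of these proteins descend from bacterial ribosomal proteins and others were added in the mitochondrial lineage.

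No mitochondrial ribosomal protein gene was called higher or lower in CASM34 than in p53WT. With edgeR's quasi-likelihood F test and Benjamini-Hochberg adjustment over 15965 genes, 0 of 79 members were higher and 0 were lower at an adjusted p under 0.05. Over all genes tested 1.95% were called, 1.61% higher and 0.345% lower, so a count of 0 in 79 lay near the background. The log2 fold changes of the members, CASM34 over p53WT, ran from -0.23 in MRPL47 to 0.18 in MRPL41. Their median was -0.04, beside -0.0005 over all genes tested, with 26 members above 0 and 53 below, whereas all genes divided into 7956 above and 8009 below. An unadjusted p under 0.05 was reached by 15 members (19.0%), against 17.1% of all genes. Of these 15, 3 were higher (3.80% of members, against 10.3% of all genes) and 12 lower (15.2%, against 6.81%). In 42 members (53.2%) the CPM values of the groups (counts scaled to the adjusted size of each library) did not overlap, against 47.9% of all genes. CASM34 was the higher group in 10 (12.7%, against 24.5% of all genes) and the lower in 32 (40.5%, against 23.4%). The shares without regard to direction lay near those over all genes, whereas by direction the members had fewer genes on the higher side and more on the lower. That split was not tested, and it is set beside GC content and the level of single libraries further on. The 95% confidence intervals of single genes, not adjusted for their number, stayed within 1.25-fold in either direction for 73 of the 79 members and within 1.5-fold for all 79, the outermost bounds being a ratio of 0.778 and of 1.25.

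**Figure D1:**
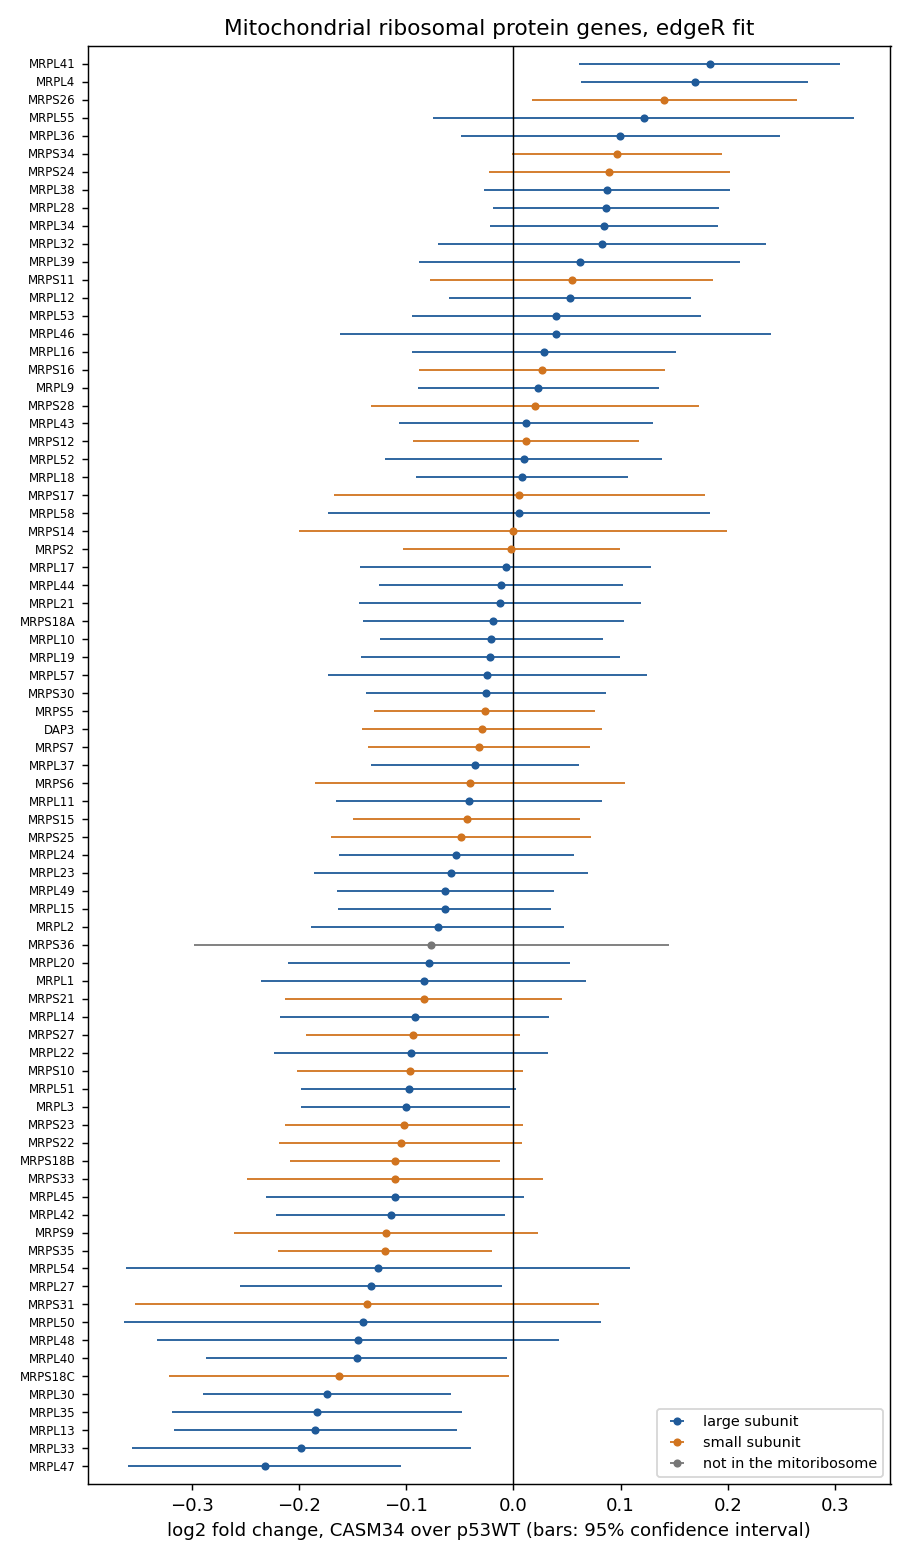
Log2 fold change of each mitochondrial ribosomal protein gene, CASM34 over p53WT, with its 95% confidence interval from the edgeR fit, ordered by value. The 79 estimates lie between -0.23 and 0.18, and 0 of them passed the adjusted threshold.

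The set contained strong contrasts in base composition, and the members at the ends of the range of fold changes lay on opposite sides of it. The first 120 coding bases of the members of lowest unadjusted p in the edgeR fit are shown, with G and C in capitals. Of these, MRPL47 and MRPL30 were among the lowest fold changes, and MRPL4 and MRPL41 were the 2 highest. Each sequence is from the longest complete coding transcript in GENCODE 29 (GRCh38).
MRPL47: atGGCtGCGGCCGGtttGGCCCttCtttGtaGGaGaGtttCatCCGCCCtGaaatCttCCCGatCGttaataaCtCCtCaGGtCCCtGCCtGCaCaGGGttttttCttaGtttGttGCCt
MRPL30: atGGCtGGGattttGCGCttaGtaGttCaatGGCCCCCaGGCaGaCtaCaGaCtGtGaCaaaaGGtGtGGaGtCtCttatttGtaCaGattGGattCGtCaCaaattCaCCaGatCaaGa
MRPL4: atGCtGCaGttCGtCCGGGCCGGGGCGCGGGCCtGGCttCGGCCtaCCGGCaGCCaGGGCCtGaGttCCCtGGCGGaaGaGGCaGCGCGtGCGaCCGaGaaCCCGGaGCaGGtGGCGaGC
MRPL41: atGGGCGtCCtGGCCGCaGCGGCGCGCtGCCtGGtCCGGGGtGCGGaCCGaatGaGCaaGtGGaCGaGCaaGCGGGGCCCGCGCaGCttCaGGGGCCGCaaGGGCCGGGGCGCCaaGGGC
G and C made up 50.8% and 45% of the stretches from MRPL47 and MRPL30, and 73.3% and 75.8% of those from MRPL4 and MRPL41. Over whole coding sequences the shares were 42.5% and 42.0% in the former pair and 65.0% and 65.7% in the latter. The genes lie at chr3:179588285-179604654 (MRPL47, minus strand), chr2:99181079-99197626 (MRPL30, plus strand), chr19:10251901-10260045 (MRPL4, plus strand) and chr9:137551199-137552555 (MRPL41, plus strand).

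Library totals were 21717726 and 25969760 estimated counts in p53WT and 26906095 and 18086983 in CASM34. Each member had between 281 and 5685 counts in every library, so none was near the limit of detection. Markers of the labelled carcinoma cells were mixed in kind. The keratin genes KRT8 and KRT18 and the mesenchymal filament gene VIM were abundant, at 501 to 556, 1011 to 1035 and 4239 to 4484 CPM, whereas the keratins KRT7 and KRT19 read 2.28 to 3.34 and 0.155 to 0.493 CPM, and EPCAM and CDH1, which define adherent epithelium, stayed at or below 0.310 CPM. Lung lineage markers summed to 0.138 to 0.932 CPM in every library, with SFTPB and SCGB1A1 at 0, and leukocyte markers to 0.110 to 0.374 CPM, with PTPRC and CD3E at 0. In bulk libraries such as these, fewer cells expressing a gene and less RNA per cell cannot be told apart.

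The large-subunit gene MRPL47 encodes a protein with a bacterial counterpart near the exit of the peptide tunnel, and it had the lowest fold change and the lowest p of the set. Its level was 48.0 and 48.0 CPM in p53WT and 40.0 and 41.9 CPM in CASM34. Both CASM34 libraries were below both p53WT libraries, but the log2 fold change of -0.23 (SE 0.06) did not pass (edgeR, adjusted p = 0.0659). MRPL33, whose small protein also has a bacterial counterpart, read 31.2 and 34.0 CPM in p53WT and 28.0 and 29 CPM in CASM34, with a fitted log2 difference of -0.20 and an SE of 0.07 (adjusted p = 0.187 by edgeR). MRPL13 read 73.4 and 75.4 CPM in p53WT and 61.7 and 69.9 CPM in CASM34, and its log2 fold change was -0.18 with an SE of 0.06 (adjusted p = 0.141 by edgeR). In both genes, again large-subunit proteins of bacterial descent, the groups did not overlap, and the spread within CASM34 was wider in MRPL13 than in MRPL33. MRPL35 read 49.5 and 51.4 CPM against 42.6 and 46.6 CPM, with a log2 fold change of -0.18. MRPL30 read 66.3 and 68.1 CPM against 61.0 and 57.9 CPM, with a log2 fold change of -0.17. These 2 large-subunit genes also separated by group without passing, at edgeR adjusted p = 0.152 and 0.117.

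At the other end, MRPL41 encodes a large-subunit protein specific to mitochondria that has also been described as a BCL2-binding protein. Its level was 123 and 136 CPM in p53WT and 142 and 153 CPM in CASM34. The groups did not overlap, and the log2 fold change was 0.18 with an SE of 0.06 (adjusted p = 0.117 by edgeR). MRPL4, a conserved protein that lines the peptide tunnel, read 112 and 117 CPM in p53WT and 132 and 125 CPM in CASM34, with a fitted log2 difference of 0.17 and an SE of 0.05 (adjusted p = 0.0988 by edgeR). Both CASM34 libraries again exceeded both p53WT libraries. The small-subunit genes MRPS26 and MRPS34 had log2 fold changes of 0.14 and 0.10, and the large-subunit genes MRPL55 and MRPL36 of 0.12 and 0.10. Of these 4, only MRPL36 had overlapping groups, and their edgeR adjusted p ranged from 0.226 (MRPS26) to 0.539 (MRPL55).

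The stalk of the large subunit recruits translation factors, and its genes stayed close to their p53WT level. MRPL12, whose protein forms the mobile stalk, read 150 and 164 CPM in p53WT and 165 and 161 CPM in CASM34, with a log2 fold change of 0.05 (95% interval -0.06 to 0.17). MRPL10, which anchors it, read 78.8 and 79.1 CPM against 78.4 and 77.3 CPM, a log2 fold change of -0.02 (95% interval -0.12 to 0.08). MRPL11 at the stalk base read 74.3 and 82.0 CPM against 74.4 and 77.9 CPM, a log2 fold change of -0.04 (95% interval -0.17 to 0.08). The groups overlapped in MRPL11 and MRPL12 and, by a narrow gap, not in MRPL10, and the edgeR adjusted p-values lay between 0.657 and 0.872.

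Humans have 3 paralogs of the bacterial protein S18, each in a separate place in the mitochondrial ribosome. MRPS18A, found in the large subunit despite its name, read 47.4 and 48.2 CPM in p53WT and 47.4 and 47.0 CPM in CASM34. MRPS18B read 193 and 201 CPM against 182 and 183 CPM, and MRPS18C read 34.0 and 31.4 CPM against 28.4 and 30.1 CPM. Their log2 fold changes were -0.02, -0.11 and -0.16. The groups overlapped for MRPS18A and not for the other 2 paralogs, of which neither passed (edgeR adjusted p = 0.233 and 0.279). MRPS30, likewise a large-subunit protein under a small-subunit name, read 76.1 and 80.5 CPM against 75.7 and 78.4 CPM, a log2 fold change of -0.03.

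Among small-subunit genes, DAP3, a GTP-binding protein first described as a mediator of cell death, read 137 and 140 CPM in p53WT and 141 and 129 CPM in CASM34, so that the CASM34 libraries lay on either side of p53WT. MRPS16 and MRPS22, both genes in which inherited defects impair mitochondrial translation, had log2 fold changes of 0.03 and -0.11. MRPS22 read 77.7 and 75 CPM against 69.0 and 73.1 CPM, and MRPS16 read 89.9 and 96.0 CPM against 97.7 and 91.5 CPM. Only MRPS22 had groups that did not overlap (edgeR adjusted p = 0.333). The large-subunit disease genes MRPL3 and MRPL44 had log2 fold changes of -0.10 (212 and 220 CPM against 202 and 201 CPM) and -0.01 (58.6 and 58.4 CPM against 58.6 and 57.4 CPM). MRPL58, a large-subunit protein that can release peptides from stalled ribosomes, read 24.0 and 26.0 CPM against 26.2 and 23.9 CPM. Its log2 fold change was 0.01, with a 95% interval of -0.17 to 0.18.

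By subunit, the median log2 fold change was -0.03 over the 51 large-subunit genes, with 18 above 0, and -0.04 over the 27 small-subunit genes, with 8 above 0. In a classification made from general knowledge of the ribosome and not from the files, the 44 genes with a bacterial counterpart and the 30 found only in mitochondrial ribosomes had medians of -0.04 and -0.04, with 14 and 10 genes above 0. The other 5 genes were left out of both classes: MRPL55, MRPS28, MRPS36, and the S18 paralogs MRPS18A and MRPS18B, which sit in places of their own.

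Levels can be compared between genes only per length, as TPM, an abundance corrected for transcript length. MRPL41 was the most abundant member at a mean of 586 TPM, followed by MRPL51 at 446 TPM and MRPL52 at 339 TPM. The least abundant were MRPL57 at 19.9 TPM, MRPS31 at 16.5 TPM and MRPL50 at 10.0 TPM, so the ends of the set lay 58.3-fold apart although each protein is a component of the same particle. The median over the 79 was 95.9 TPM, with quartiles at 53.1 and 180 TPM. MRPL41 read 532 and 566 TPM in p53WT and 596 and 649 TPM in CASM34, whereas MRPL50 read 10.1 and 10.9 TPM against 8.43 and 10.7 TPM. The neighbours MRPL57 and MRPS31 did not overlap in TPM across the 4 libraries, and neither did MRPL41 and MRPL51. Across the 79 members, mean TPM had a Spearman correlation of -0.56 with mean effective length, the length RSEM estimated for the transcripts. TPM is divided by that same length, so part of this correlation may follow from the calculation. The correlation with transcript GC content was 0.50. Both values describe genes that share the same libraries. The median coefficient of variation of CPM within a group was 3.45% in p53WT and 3.0% in CASM34.

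**Figure D2:**
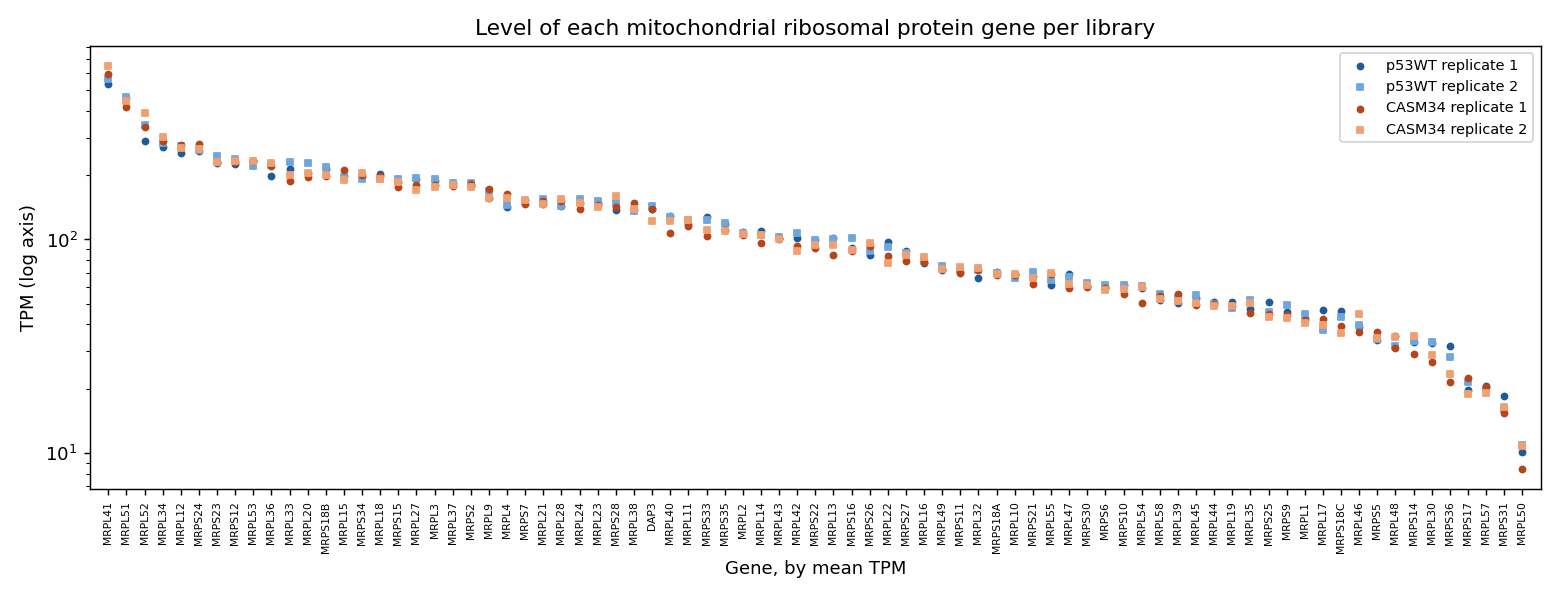
Level in TPM (log scale) of each mitochondrial ribosomal protein gene in the 4 libraries, ordered by mean TPM. The genes span 10.0 to 586 mean TPM, while the 4 libraries of a gene lie close together.

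For 7 members the fold change depended on the scale by more than 0.1 log2 units. TPM uses a transcript length estimated in each library and CPM does not. The largest gap was in MRPS36, the gene whose protein is not in the ribosome. It read 18.1 and 19.7 CPM in p53WT and 16.5 and 19.7 CPM in CASM34, a log2 fold change of -0.08 with overlapping groups. On the TPM scale it read 31.6 and 28.2 in p53WT and 21.4 and 23.4 in CASM34, which did not overlap, with a log2(TPM + 1) fold change of -0.40 (limma, adjusted p = 0.338). MRPS16 and MRPL52 moved by -0.15 and 0.19 between the CPM and the TPM scale, and MRPL35 by 0.13.

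The summed level of the 79 genes was 5916 and 6163 CPM in p53WT and 5899 and 5942 CPM in CASM34. The value of p53WT 1 lay between those of the CASM34 libraries, so the groups overlapped, and p53WT 2 was the highest. As a share of all counts the genes took 0.592% and 0.613% in p53WT and 0.586% and 0.600% in CASM34. Within p53WT, library 2 exceeded library 1 in 66 of 79 members (83.5%), compared with 50.1% of all genes tested, by a median log2 difference of 0.05. Within CASM34, library 2 exceeded library 1 in 44 of 79 members (55.7%), compared with 48.7% of all genes. The median difference between the p53WT libraries was thus larger than the median difference of -0.04 between the groups. Without p53WT 1 the median fold change of the members was -0.07, and without p53WT 2 it was -0.01.

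The same library stood high in other genes of the same kind. Library 2 of p53WT exceeded library 1 in 100% of the 79 cytosolic ribosomal protein genes and in 87.3% of the 79 nuclear-encoded respiratory chain genes, with median log2 differences of 0.08 and 0.07. In CASM34, library 2 also exceeded library 1 in 86.1% and 67.1% of these genes, compared with 48.7% of all genes. The median log2 differences there were 0.06 and 0.04. The median log2 fold change between groups was -0.04 in the former, with 0 genes called and 23 above 0, and -0.04 in the latter, with 1 gene higher and 26 above 0. The gene that passed was NDUFS7, a complex I subunit, at a log2 fold change of 0.27 (adjusted p = 0.0315 by edgeR), which was 0.05 (adjusted p = 0.747) with the offset for GC and length described further on. The medians of the 3 nuclear classes lay close together without that offset. With it they were -0.04 in the mitochondrial ribosomal protein genes (26 above 0), -0.0001 in the cytosolic ribosomal protein genes (39 above 0) and 0.0042 in the respiratory chain genes (42 above 0), a difference that was not tested. Over all genes the median with it was -0.02, with 6850 of 15695 above 0. A respiratory chain gene other than NDUFS7 was called with it, 1 of 79, beside 0.376% of all genes. The 13 mRNAs encoded in mitochondrial DNA, which this ribosome translates, had a median of 0.35 and 13 of 13 above 0. The groups did not overlap in 5 of them (38.5%, against 47.9% of all genes), and 2 passed the adjusted threshold. MT-ND2 and MT-ND6, both complex I subunits, had log2 fold changes of 0.41 and 0.56 (edgeR adjusted p = 0.0381 and 0.0489). With the offset for GC and length MT-ND2 passed at 0.49 (adjusted p = 0.0487), MT-ND6 did not at 0.71 (adjusted p = 0.0737), and MT-ND3 passed at 0.46 (adjusted p = 0.000672). MT-ND2 read 1450 and 1178 CPM in p53WT and 1919 and 1583 CPM in CASM34, and MT-ND6 read 173 and 137 CPM against 268 and 185 CPM. Library 2 was the lower for 13 of the 13 mRNAs in p53WT and for 12 of 13 in CASM34, MT-ND3 being the exception, with median log2 differences of -0.40 and -0.37. The difference between libraries was thus about as large as that between groups, and in opposite direction to the nuclear genes. The difference in fold change between the 13 mRNAs and the nuclear genes was not tested.

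**Figure D3:**
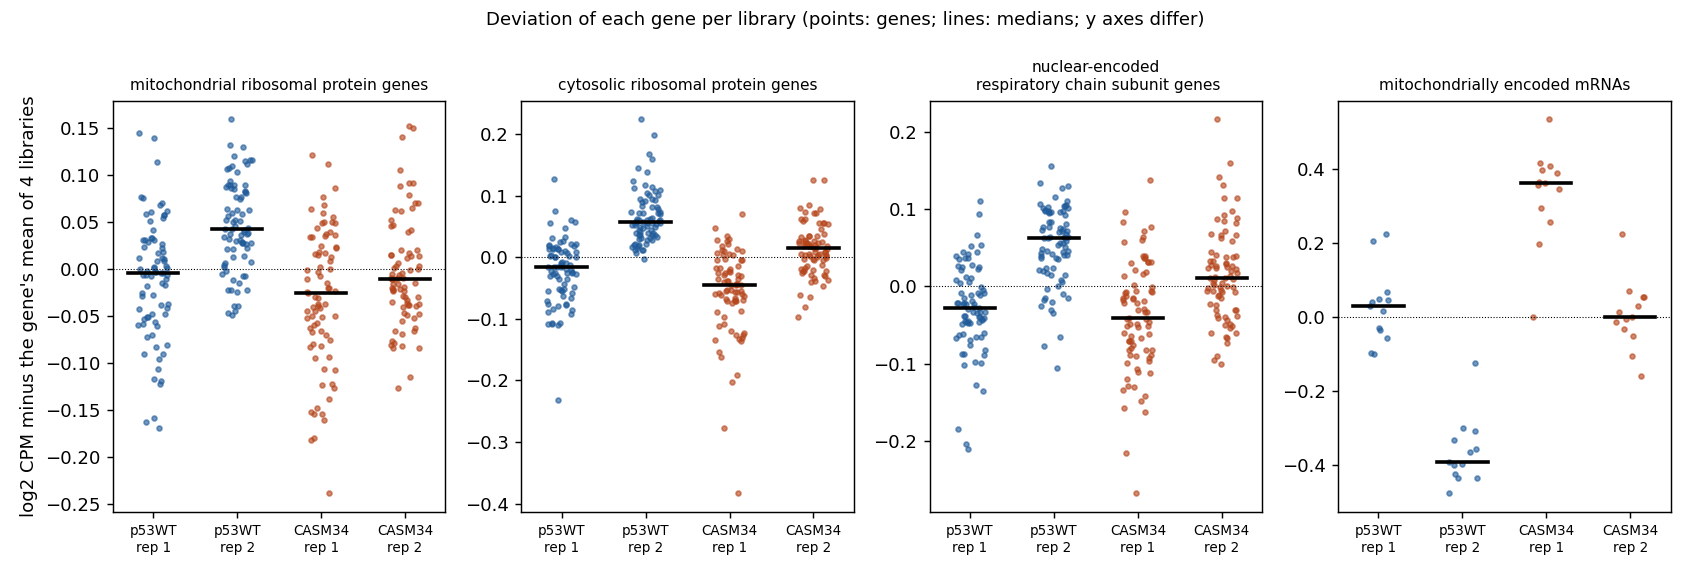
Deviation of each gene in each library from its own mean over the 4 libraries, in log2 CPM, for 4 gene classes, with black lines at the medians. The p53WT 2 library has the highest median of the nuclear classes (0.04 in the mitochondrial ribosomal protein genes) and the lowest of the mitochondrially encoded mRNAs (-0.39).

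The fold changes of the members followed the GC content of their transcripts, as those of all genes did. Across the 79 members, transcript GC ran from 35.0% (MRPL50) to 71.9% (MRPL41), and its Spearman correlation with the log2 fold change was 0.59 (Pearson 0.64), beside 0.47 over the 15695 genes tested that had a GC value. With GC of the coding sequence in its place the Spearman value was 0.68, and with GC at the wobble position of codons, which ran from 29.1% to 90.5%, it was 0.59. These are descriptions over genes that share the same 4 libraries. Of the 26 members under 45% GC, 2 lay above 0 (MRPL39 and MRPL32) and the median log2 fold change was -0.10. Over all genes of that class 25.7% lay above 0 and the median was -0.07. Of the 32 members between 45% and 55% GC, 11 lay above 0, with a median of -0.03 beside -0.02 over all genes of the class. Of the 21 members at 55% GC or more, 13 lay above 0, with a median of 0.04, whereas 79.4% of all genes of that class lay above 0, with a median of 0.11. Over all genes, log2 deviation changed by -0.0588 and -0.0580 per 10 points of GC in the p53WT libraries and by 0.0741 and 0.0427 in the CASM34 libraries. GC dependence of the libraries and the groups therefore cannot be told apart in these 4 libraries.

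**Figure D4:**
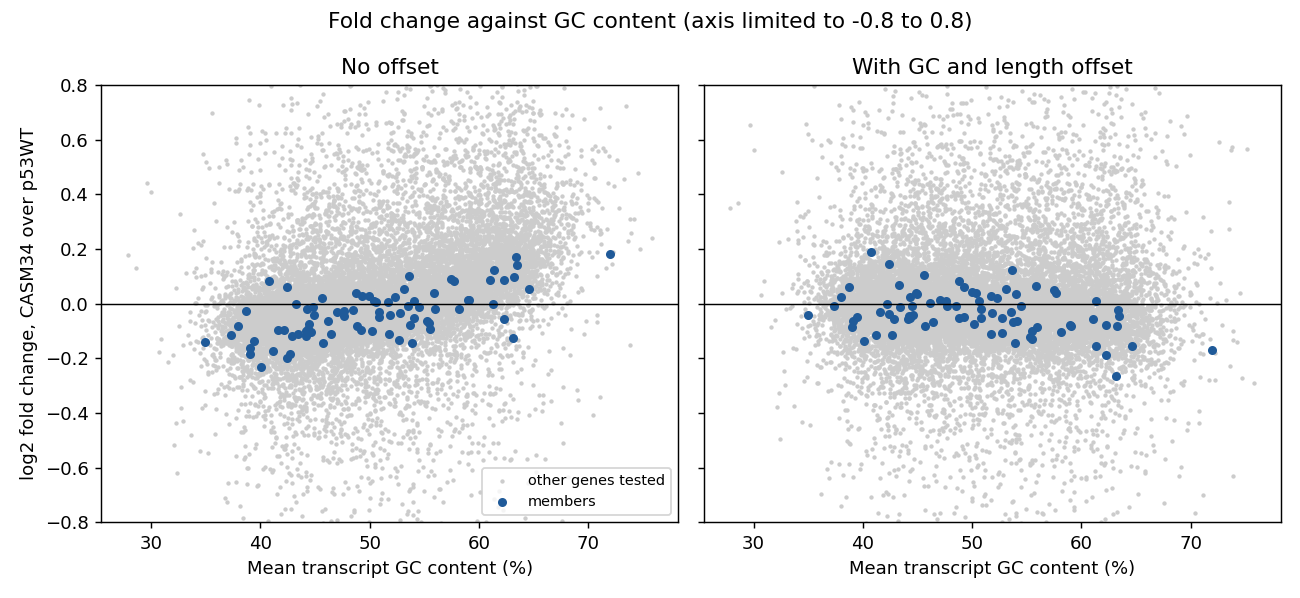
Log2 fold change of each mitochondrial ribosomal protein gene, CASM34 over p53WT, against the GC content of its transcripts, without and with an offset for GC content and length. The Spearman correlation over the 79 genes is 0.59 without the offset and -0.30 with it.

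The offset for GC and transcript length was fitted in each library to the deviations of genes from their mean over the 4 libraries. Any GC trend that differs between the groups is removed with it. A weaker all-gene correlation and lower fold changes in GC-rich genes therefore follow from its construction. With this offset 0.376% of genes were called and 0 of 79 members. The Spearman correlation became -0.30 in the members and -0.05 over all genes. The median of the members was then -0.04, beside -0.02 over all genes, and again 26 members lay above 0, while 61 of the 79 had the sign they had without the offset. Of the 13 members at 55% GC or more that lay above 0, 9 were below 0 with the offset, among them MRPL41 (from 0.18 to -0.17) and MRPL4 (from 0.17 to -0.02). The other 4, which include MRPL55 (from 0.12 to 0.01), stayed above 0, and the 8 that lay below 0 stayed below. MRPL47 kept its direction at -0.14 (edgeR adjusted p = 0.314).

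Other ways of processing called a few members. Without a filter on low counts 2.97% of genes were called and 3 members, with MRPL41 higher and MRPL13 and MRPL47 lower. Without CASM34 replicate 1, 3.04% of genes were called and 1 member, MRPL41, at a log2 fold change of 0.24 (edgeR adjusted p = 0.0107). Without CASM34 replicate 2, 5.53% of genes were called and 5 members, with MRPL4 higher and MRPL13, MRPL35, MRPL47 and MRPL50 lower. Among these MRPL50 moved most, from -0.14 to -0.31, and it read 21.7 CPM in CASM34 1 and 27.5 CPM in CASM34 2. DESeq2 called 1.33% of genes and 0 members, with 7 members and 8.73% of genes at an unadjusted p under 0.05. By limma on log2(TPM + 1), 0% of genes and 0 members were called, with 14 members and 11.4% of genes unadjusted. By limma-voom, 2% of genes and 0 members were called, with 16 members and 17.6% of genes unadjusted.

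Starts of 70 of the 79 members were found in the RefSeq promoter table (GRCh38.p14), each as a window of 300 bases, 250 before and 50 after the first listed start. The factors YY1, NRF1 and the ETS factor GABP are known regulators of nuclear genes for mitochondrial proteins, and 8 letters of each motif were searched on both strands. The letters AAGATGGC (YY1) occurred in 20 of the 70 windows (28.6%), compared with 3.03% of all 27305 windows and 5.31% of the 10637 windows of tested protein-coding genes. In 15 of these 20 (75%) the nearest match began at or after the start, compared with 374 of 565 (66.2%) in tested protein-coding genes. CCGGAAGT (ETS) occurred in 11 (15.7%, compared with 4.44% and 8.74%) and GCGCATGC (NRF1) in 6 (8.57%, compared with 3.27% and 5.51%). The median log2 fold change was -0.06 in members with the YY1 letters and -0.03 in those without. The windows of MRPL47, which had the lowest p, and of the 3 most abundant members are shown up to 30 bases after the start, with these motif letters in capitals.
MRPL47 (chr3:179604609-179604888, minus strand): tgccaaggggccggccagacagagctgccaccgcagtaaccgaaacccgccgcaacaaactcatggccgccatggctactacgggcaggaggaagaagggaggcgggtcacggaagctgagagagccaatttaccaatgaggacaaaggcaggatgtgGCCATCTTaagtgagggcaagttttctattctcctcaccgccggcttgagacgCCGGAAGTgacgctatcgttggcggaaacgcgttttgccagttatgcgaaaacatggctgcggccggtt
MRPL51 (chr12:6493233-6493512, minus strand): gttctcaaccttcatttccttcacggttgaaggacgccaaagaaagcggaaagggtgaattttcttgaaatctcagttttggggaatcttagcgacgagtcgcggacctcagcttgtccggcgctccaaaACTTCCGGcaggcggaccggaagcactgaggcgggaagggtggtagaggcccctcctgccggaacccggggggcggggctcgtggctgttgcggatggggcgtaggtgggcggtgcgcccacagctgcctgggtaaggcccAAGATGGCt
MRPL52 (chr14:22829637-22829916, plus strand): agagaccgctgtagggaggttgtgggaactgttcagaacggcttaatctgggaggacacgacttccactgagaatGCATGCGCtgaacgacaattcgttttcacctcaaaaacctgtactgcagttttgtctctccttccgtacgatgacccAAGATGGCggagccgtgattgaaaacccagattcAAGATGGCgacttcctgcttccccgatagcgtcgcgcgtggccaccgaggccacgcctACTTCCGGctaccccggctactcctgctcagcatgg
MRPL41 (chr9:137551629-137551908, plus strand): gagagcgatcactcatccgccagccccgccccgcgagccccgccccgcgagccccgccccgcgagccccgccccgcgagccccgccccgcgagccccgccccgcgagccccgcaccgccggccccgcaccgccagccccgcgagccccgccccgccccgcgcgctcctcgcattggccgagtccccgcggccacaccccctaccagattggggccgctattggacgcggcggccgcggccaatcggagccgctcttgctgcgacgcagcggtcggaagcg
The MRPL51 window carries the YY1 letters just after its start and the MRPL52 window carries them in 2 places before it, while the MRPL41 window has none of the 3 motifs and is 81.4% G and C. A match describes letters and does not show binding.

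A divergent neighbour, whose start lay within 1000 bp on the opposite strand, was present for 20 of 79 members (25.3%), compared with 11.4% of 13233 protein-coding genes tested. MRPL46 and MRPS11, a large- and a small-subunit gene, start 34 bp apart and face away from each other, with log2 fold changes of 0.04 and 0.05. MRPL47 is paired with the complex I gene NDUFB5 at 36 bp (log2 fold change -0.04), and MRPL36 with the complex I gene NDUFS6 at 34 bp (0.10). Of the 19 pairs, 1 had a partner that rose and 0 a partner that fell, beside 1.61% and 0.345% of all genes tested. The partner that rose was EME2, a subunit of a structure-specific nuclease beside MRPS34, at a log2 fold change of 0.83 (edgeR adjusted p = 0.0207). Transcripts of EME2 are 66.8% G and C, and the gene was singled out after its value was seen. By annotated bounds a divergent neighbour lies upstream of the member and does not overlap it. Apart from these pairs, 28 of the 79 members (35.4%) overlap a tested gene on the opposite strand, compared with 29.9% of protein-coding genes tested. Whether the counting used strand is not given in the sources used here, so reads of such overlapping genes may not be separable.

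Other lists of genes linked to mitochondrial translation gave 3 calls, POLRMT and 2 of the mRNAs that this ribosome translates, MT-ND2 and MT-ND6. Over all genes tested, 1.95% were called and 17.1% had an unadjusted p under 0.05. Of 18 translation factors 0 rose and 0 fell, the median log2 fold change being -0.02, and 4 genes (22.2%) had an unadjusted p under 0.05. The elongation factor gene TUFM read 477 and 489 CPM in p53WT and 481 and 464 CPM in CASM34. Of 29 genes for ribosome assembly and rRNA modification 0 rose and 0 fell (median -0.04, 6 unadjusted, 20.7%). The same held for 20 mitochondrial tRNA synthetase and amidotransferase genes (median -0.04, 2 unadjusted, 10%). Of 10 nuclear regulators of mitochondrial biogenesis 0 rose and 0 fell (median -0.04, 1 unadjusted, 10%). That 1 was PPARGC1A, a coactivator, at 2.72 and 1.94 CPM in p53WT and 1.57 and 1.26 CPM in CASM34, low levels at which the log2 fold change was -0.69 (SE 0.29, adjusted p = 0.239 by edgeR). The 4 ribosomal proteins that carry other names were likewise not called, with log2 fold changes of 0.11 (AURKAIP1), 0.10 (GADD45GIP1), -0.01 (CHCHD1) and -0.11 (PTCD3). Of 16 genes for mitochondrial transcription and DNA maintenance 1 rose and 0 fell. That gene was POLRMT, the mitochondrial RNA polymerase, at 121 and 128 CPM in p53WT and 158 and 144 CPM in CASM34. The log2 difference was 0.27 with an SE of 0.05 (adjusted p = 0.0243 by edgeR). Its transcripts are 63.9% G and C, and with the offset for GC and length its log2 fold change was 0.04 (edgeR adjusted p = 0.773). TFAM, which packages mitochondrial DNA and starts its transcription, read 93.8 and 94.0 CPM against 92.4 and 91.1 CPM, a log2 fold change of -0.03.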

How the data were processed

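Poly(A) RNA-seq was made from H1299 cells expressing p53WT (2 libraries) or CASM34 (2 libraries). Per the file headers, the deposited gene tables hold RSEM expected counts, TPM and effective lengths, and the submitters' processing notes name Trim Galore, STAR, RSEM and GRCh38. Tool versions, the annotation release and whether counting used strand were not given in these sources. In each library 8.63% to 9.26% of all 61852 genes listed had fractional expected counts, reads that RSEM shared among similar genes. That share includes genes without counts, as only 21595 to 22504 genes per library had a count after rounding. Among the members, all of which had counts, 30 had a fractional count in at least 1 library.

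Expected counts were rounded. Genes passing filterByExpr (minimum count 10) were scaled by TMM and tested with edgeR 4.0.16 quasi-likelihood F tests on group alone (R 4.3.3), with Benjamini-Hochberg adjustment over all 15965 genes. CPM values use the TMM-scaled library sizes. Each SE was obtained from the log2 fold change and its F statistic. Alternatives used limma 3.58.1, DESeq2 1.42.0, other scalings and filters, and offsets for effective length or for GC and length (GENCODE 29 transcripts, 98.3% of tested genes). The fitting code was tested on simulated data. Symbols were matched by Ensembl identifier for 61757 of 61852 genes.

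Members, gene lists and tests were chosen with earlier results of these data known. Named members were any called or too low to test (there were none), the 6 largest fold changes in each direction, the 3 highest and 3 lowest in TPM, and those chosen by role: stalk, S18 paralogs, MRPS30, DAP3, MRPS36, MRPL58 and 4 disease genes. From the other lists up to 4 called genes were named. MRPL32, MRPL39, NDUFS7, MT-ND3, TUFM, TFAM, PPARGC1A, the 4 ribosomal proteins of other names and the divergent neighbours were named after their values were seen. No 2 libraries of a group agreed within sampling noise (chi-square per degree of freedom 3.90 and 3.94).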

Additional observations from a re-analysis of the deposited data

How the results depend on the processing

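The counts of 0 members higher and 0 lower held under median-of-ratios scaling, library totals, a mean CPM of at least 1, both offsets, limma-voom, limma on log2(TPM + 1), DESeq2 and an adjusted p under 0.01. Without a low-count filter 1 member rose and 2 fell. Leaving out 1 library gave 0 to 1 members higher, 0 to 4 lower and a median of -0.070 to -0.012. Over all genes the main count of 312 became 57 at an adjusted p under 0.01, 777 without a filter, 5 with the effective length offset, 59 with the GC and length offset, 0 by limma on log2(TPM + 1), where 1820 had an unadjusted p under 0.05, and 109 to 919 with 1 library left out. The 3 genes called in the other mitochondrial lists became 1 with library totals, 14 without a filter, 0 with the effective length offset, 0 by limma on log2(TPM + 1), 1 by DESeq2 and 1 to 14 with 1 library left out. For the counts that moved, the cause was not tested.

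The labels do not say whether the replicate numbers pair the libraries. Over all genes tested, deviations of same-numbered libraries correlated at 0.03. Yet library 2 was lower than library 1 in the mitochondrially encoded mRNAs of both groups, by median log2 differences of -0.40 and -0.37. In the cytosolic ribosomal protein genes it was higher in both, by 0.08 and 0.06. The main fit used no block, and whether the numbers mark pairs was not tested. With the replicate block, 1159 genes were called, with 2 members higher (MRPL4, MRPL41), 3 lower (MRPL13, MRPL30, MRPL47) and 15 genes of the other lists.

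Of 420 values of the 30 named members under alternatives, 376 kept their direction and call, 14 passed the threshold in addition and 30 changed sign. With the GC and length offset the log2 fold changes that changed sign were DAP3 0.012, MRPL12 -0.16, MRPL4 -0.022, MRPL41 -0.17, MRPL44 0.040, MRPS26 -0.044, MRPS30 0.061 and MRPS34 -0.081. With the effective length offset they were MRPL10 0.027 and MRPS16 -0.12, by limma on log2(TPM + 1) MRPL10 0.018, MRPL58 -0.0080 and MRPS16 -0.12, and without a filter MRPL58 -0.0015. With 1 library left out the ranges were DAP3 -0.10 to 0.033, MRPL11 -0.11 to 0.035, MRPL12 -0.018 to 0.13, MRPL36 -0.012 to 0.22, MRPL44 -0.028 to 0.0018, MRPL50 -0.31 to 0.034, MRPL52 -0.074 to 0.099, MRPL57 -0.081 to 0.021, MRPL58 -0.070 to 0.066, MRPS16 -0.025 to 0.077, MRPS30 -0.070 to 0.018 and MRPS36 -0.20 to 0.053, which include both signs. Each member had at least 281 counts in every library. Small changes may have gone undetected, and the intervals given, not adjusted for the number of genes, do not mark the limit of detection. In the main fit 15 members had an unadjusted p under 0.05 by edgeR, and 0 were called.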
